A study of Mus musculus with 12 samples.

Results

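The core loop of the mammalian circadian clock was described here through 8 genes in the mouse heart: the activators Bmal1 (annotated as Arntl on many arrays), Clock and Npas2, the period genes Per1, Per2 and Per3, and the cryptochrome genes Cry1 and Cry2. Members were chosen by name, as every probe set annotated to exactly 1 gene with one of these symbols. This gave 20 probe sets for the 8 genes, of 34945 such probe sets for 18193 genes on the array. Bmal1 had 2 probe sets, Clock 4, Npas2 2, Per1 1, Per2 3, Per3 6, Cry1 1 and Cry2 1. A probe set is a group of short probes read as a single intensity.

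In the loop, BMAL1 pairs with CLOCK, or with the related protein NPAS2, and the pair binds E-box motifs and turns on the Per and Cry genes. PER and CRY proteins return to the nucleus and inhibit that pair, which closes the loop over the course of a day. A second loop of REV-ERB and ROR nuclear receptors acts on Bmal1, and in mouse tissues Bmal1 transcripts peak at about the time of day when Per transcripts are low. Heart muscle cells hold this clock, which is known for its daily control of cardiac metabolism and ion channel genes.

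Total RNA from mouse hearts was hybridised to 12 Affymetrix arrays, in 4 groups of 3 that the labels call biological replicates. The groups were hearts of apelin knockout mice after aortic banding (knockout banded), of apelin knockout mice after a sham operation (knockout sham), of wild-type mice after aortic banding (wild-type banded) and of wild-type mice after a sham operation (wild-type sham). Apelin is a secreted peptide with a receptor in heart and blood vessels, and banding narrows the aorta so that the heart pumps against a raised pressure. How the apelin gene was deleted, how long the banding lasted, and the strain, sex and age of the mice and the hour at which tissue was taken are not stated by the labels used here, and the part of any of them in the values below was not tested.

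The tissue label was checked against 7 heart muscle markers, whose summed intensity was 57130 to 111200 in the 12 arrays. Apln, the targeted gene, read 271, 123 and 160 in the knockout banded arrays 1, 2 and 3 and 63.7, 111 and 85.3 in knockout sham, against 205, 223 and 255 in wild-type banded and 333, 324 and 213 in wild-type sham. The array labelled knockout banded 1 thus lay within the wild-type range. It also read 1675 for the sum of 6 lung and airway markers, against 173 to 248 in the other arrays, and 6669 for 6 fibroblast markers, against 14910 and 13010 in knockout banded 2 and 3. Because that array stands apart, the calls of member genes in comparisons that contain it are given with and without it, as are the main differences. Other arrays stood out in other lists. The 5 atrial cardiomyocyte markers summed to 4156 to 35330 over the arrays, with 4156 in wild-type sham 2 and 30590 in wild-type sham 3. The 5 neutrophil markers on the array summed to 2087 in wild-type banded 2, against 149 to 903 in the others. The part of these in the values below was not tested. The arrays had median intensities of 40.3 to 50.4, and any pair of arrays correlated at 0.97 to 0.981 where the group was shared and at 0.961 to 0.979 where it was not.

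The DNA before the start sites is shown first, because the loop acts through short motifs there. The part of these motifs in the values below was not tested. Windows of 250 bases before to 50 bases after a start site were taken from RefSeq (mouse build GRCm38.p6) and searched on both strands for the E-box CACGTG, the E'-box CACGTT, the D-box TTANGTAA, the ROR and REV-ERB element (the half-site AGGTCA directly after AANT) and the cyclic AMP element TGACGTCA. Of 32851 windows of the same length, 7.15% held the E-box, 4.68% the E'-box, 2.32% the D-box, 0.219% the ROR and REV-ERB element and 1.79% the cyclic AMP element. None of the matches overlapped another motif. The Bmal1 window at chr7:113207261-113207560 (plus strand) is shown for its ROR and REV-ERB element, which began at base 28 after the start. The Per1 window at chr11:69098699-69098998 (plus strand) held an E-box 166 bases before the start. The Per3 window at chr4:151044616-151044915 (minus strand) held D-boxes 205 and 158 bases before the start. The Cry1 window at chr10:85185005-85185304 (minus strand) held an E-box 60 bases and an E'-box, on the opposite strand, 79 bases before the start. The Cry2 window at chr2:92434020-92434319 (minus strand) held an E'-box, also on the opposite strand, 166 bases before the start. Each is printed 5′ to 3′ on the strand of its gene, with the motifs in capitals.
Bmal1: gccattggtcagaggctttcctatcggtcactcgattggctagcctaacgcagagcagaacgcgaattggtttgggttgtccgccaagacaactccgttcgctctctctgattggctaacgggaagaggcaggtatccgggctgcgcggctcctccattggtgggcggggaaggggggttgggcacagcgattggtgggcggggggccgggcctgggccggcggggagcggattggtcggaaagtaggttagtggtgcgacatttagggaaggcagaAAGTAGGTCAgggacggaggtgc
Per1: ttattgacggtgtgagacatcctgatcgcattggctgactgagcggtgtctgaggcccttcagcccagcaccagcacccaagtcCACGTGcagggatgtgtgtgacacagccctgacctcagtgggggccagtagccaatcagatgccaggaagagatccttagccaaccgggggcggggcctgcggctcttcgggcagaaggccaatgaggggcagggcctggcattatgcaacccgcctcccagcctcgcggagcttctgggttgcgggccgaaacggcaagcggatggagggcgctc
Per3: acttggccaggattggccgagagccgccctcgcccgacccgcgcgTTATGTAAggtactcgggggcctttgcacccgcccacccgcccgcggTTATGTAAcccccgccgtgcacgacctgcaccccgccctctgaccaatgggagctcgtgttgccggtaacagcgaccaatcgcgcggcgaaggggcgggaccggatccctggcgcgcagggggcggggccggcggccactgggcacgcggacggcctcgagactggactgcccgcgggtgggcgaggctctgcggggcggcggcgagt
Cry1: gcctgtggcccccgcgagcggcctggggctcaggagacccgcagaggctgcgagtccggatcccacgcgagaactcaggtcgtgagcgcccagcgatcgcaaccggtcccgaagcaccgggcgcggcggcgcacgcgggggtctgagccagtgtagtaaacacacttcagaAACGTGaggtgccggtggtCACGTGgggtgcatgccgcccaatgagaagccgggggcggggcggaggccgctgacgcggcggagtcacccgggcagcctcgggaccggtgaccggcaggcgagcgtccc
Cry2: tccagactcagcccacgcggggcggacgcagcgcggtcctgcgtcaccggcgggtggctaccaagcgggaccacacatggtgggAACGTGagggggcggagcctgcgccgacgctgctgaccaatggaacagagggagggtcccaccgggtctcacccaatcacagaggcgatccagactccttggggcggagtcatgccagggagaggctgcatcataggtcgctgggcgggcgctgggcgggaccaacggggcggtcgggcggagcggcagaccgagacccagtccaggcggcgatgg
None of these 5 motifs was found in the 3 Clock windows, the single Npas2 window, the other Bmal1 window or the other Per1 window. Per2 is named only. A match describes the letters in a window and does not show that a factor binds there.

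Bmal1, the partner that every activator pair needs, spans chr7:113178471-113314126 and was the member with the largest ratio of highest to lowest array. The higher of its 2 probe sets read 57.6, 284 and 225 in knockout banded hearts and 42.2, 48.4 and 24.8 in knockout sham hearts, against 211, 76.5 and 138 in wild-type banded and 187, 282 and 53.5 in wild-type sham hearts. The highest array was 11.4 times the lowest, and the 3 knockout sham arrays were below all the others. Its mean was 189 ± 117 in knockout banded, 38.5 ± 12.2 in knockout sham, 142 ± 67.5 in wild-type banded and 174 ± 115 in wild-type sham hearts (SD, n = 3), so the arrays of a group lay close together in knockout sham hearts and far apart in the others. The other probe set read 39.96 to 89.5 over all 12 arrays and did not separate the groups.

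Clock, the enzyme partner of BMAL1, lies at chr5:76209868-76305603 and shared its 6 lowest arrays with Bmal1, over a narrower range. The highest of its 4 probe sets read 166, 269 and 253 in knockout banded hearts and 176, 181 and 163 in knockout sham hearts, against 278, 211 and 228 in wild-type banded and 260, 289 and 183 in wild-type sham hearts. The knockout sham values lay below all wild-type values, and the array labelled knockout banded 1 lay among them. Npas2 (chr1:39193702-39363240), which can stand in for Clock, read 24.6, 55.3 and 48.1 in knockout banded and 11.3, 25.4 and 25.8 in knockout sham hearts, against 43.5, 16.3 and 44.4 in wild-type banded and 26.6, 42.3 and 13.6 in wild-type sham hearts. Its groups overlapped in all 4 comparisons of 2 groups, and the array labelled knockout banded 1 was again near the knockout sham values. Npas2 ranked at the 31.1 percentile of genes by mean, outside the upper 60% that was tested, so 7 of the 8 members have a test. Cry1, at the 42.8 percentile, was the member just inside that limit.

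The period genes, whose proteins carry the inhibition, ran the other way. Per1 (chr11:69095108-69109965) read 640, 235 and 357 in knockout banded and 517, 581.6 and 491 in knockout sham hearts, against 471, 724 and 504 in wild-type banded and 177, 280 and 730 in wild-type sham hearts. The 3 knockout sham values were close together, while the other groups each held high and low arrays. Per2 (chr1:91415977-91459351), which also responds to glucocorticoid hormone, read 199, 45.0 and 53.1 in knockout banded and 188, 191 and 280 in knockout sham hearts, against 82.3, 139 and 99.0 in wild-type banded and 51.1, 32.1 and 183 in wild-type sham hearts. Every knockout sham heart read higher than every wild-type heart. Per3 (chr4:150997018-151044707), the period gene whose loss leaves the mouse clock running, read 167, 42.9 and 54.2 in knockout banded and 155, 278 and 255 in knockout sham hearts, against 116, 155 and 126 in wild-type banded and 109, 94.3 and 190 in wild-type sham hearts. The array labelled knockout banded 1 was the only one of its group inside the knockout sham range.

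The cryptochromes, the strongest inhibitors of the activator pair, differed from each other. Cry1 (chr10:85131700-85185054) read 55.3, 66.7 and 59.9 in knockout banded and 68.2, 45.8 and 49.4 in knockout sham hearts, against 47.0, 49.8 and 51.9 in wild-type banded and 51.3, 69.2 and 50.5 in wild-type sham hearts. Its highest array was nearest to its lowest, as a ratio, of all the members. Cry2 (chr2:92403646-92434085) read 176, 110 and 81.0 in knockout banded and 154, 217 and 208 in knockout sham hearts, against 190, 211 and 132 in wild-type banded and 121, 111 and 172 in wild-type sham hearts. Of its 6 highest arrays, 5 were among the 6 lowest for Bmal1.

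**Figure D1:**
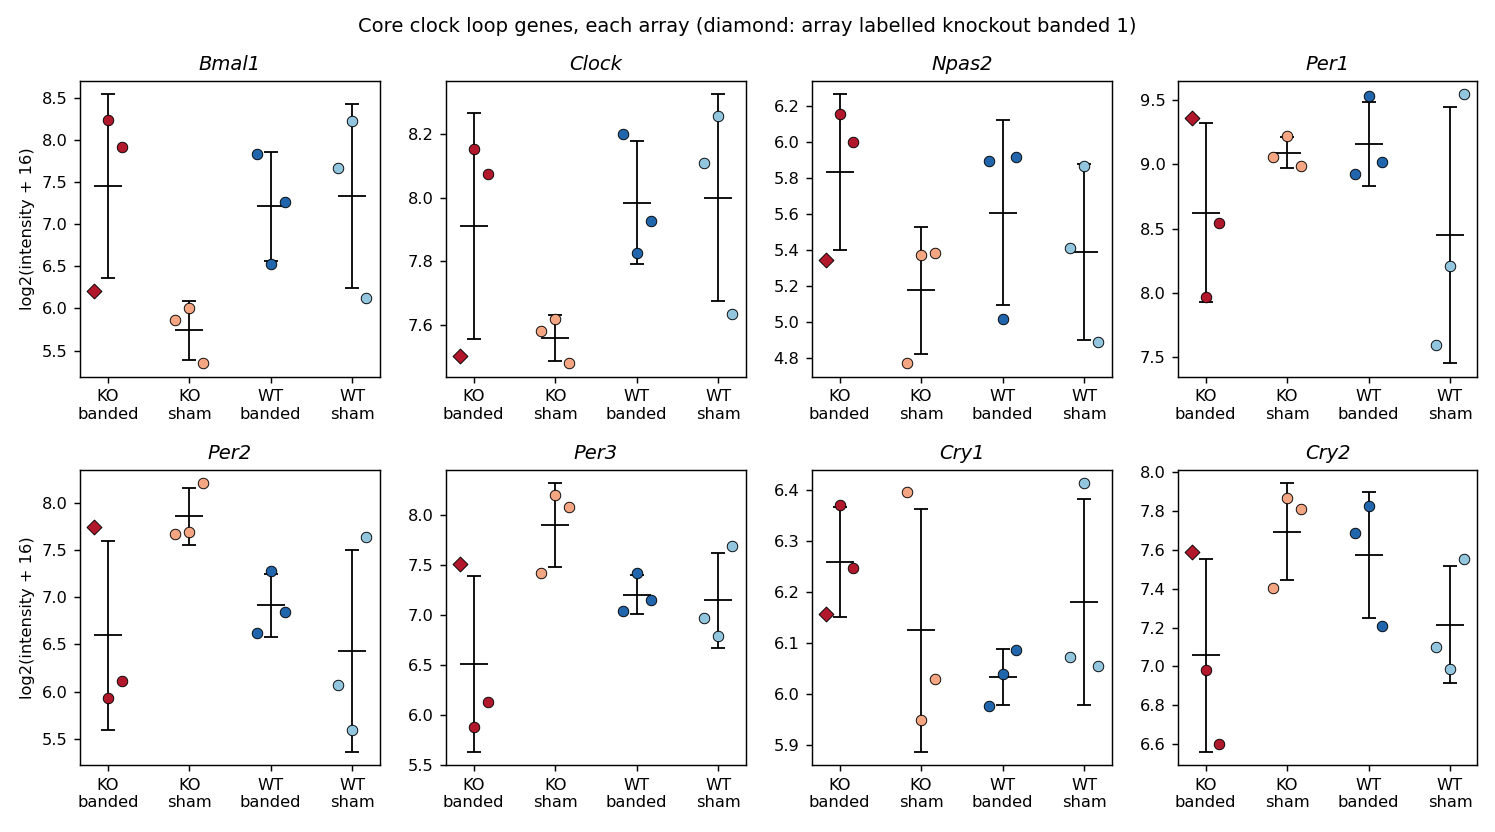
Level of each core clock gene in every array (vertical axes, log2(intensity + 16), a scale of its own for each gene), by group, with the array labelled knockout banded 1 as a diamond, the others as circles, and the mean and SD of the 3 arrays as black bars. The 3 knockout sham arrays sit low for Bmal1 (intensities of 24.8 to 48.4) and high for Per2 (188 to 280), and the diamond lies near them. So does wild-type sham 3, at 53.5 for Bmal1 and 183 for Per2.

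The first comparison sets banded against sham hearts among those labelled apelin knockout. In knockout banded against knockout sham hearts, Bmal1 was 1.71 ± 0.56 higher and Clock 0.35 ± 0.19 higher on the log2 scale, while Per1 stood at -0.46 ± 0.42, Per2 at -1.26 ± 0.51, Per3 at -1.39 ± 0.37, Cry1 at 0.13 ± 0.16 and Cry2 at -0.64 ± 0.25 (differences of log2(value + 16), SE, n = 3 arrays a group). By limma with Benjamini-Hochberg adjustment over 10916 genes, the adjusted p was 0.107 for Bmal1, 0.308 for Clock, 0.568 for Per1, 0.178 for Per2, 0.0565 for Per3, 0.684 for Cry1 and 0.164 for Cry2. So 0 of 7 members passed 0.05, where 3.81% of all genes did. At an unadjusted p under 0.05, 4 of 7 members and 2300 of 10916 genes were counted. Most members varied together across the arrays, as given below. Counts of members, here and in the later comparisons, are therefore not counts of independent genes. The median difference was -0.46 over the members and -0.018 over all genes. Groups did not overlap for 1 of 7 members, Bmal1, where 26.6% of all genes did not. With both Bmal1 probe sets averaged, its difference was 0.82 ± 0.35 (adjusted p = 0.214 by limma). Controls of RNA quality and markers of cell types also differed here: the Actb 3′ control over its 5′ control was, in log2, -0.198, -0.219 and -0.172 in knockout banded and 0.165, -0.01 and 0.302 in knockout sham hearts, and 6 endothelial markers summed to 3224 to 3373 in knockout banded and 2693 to 2966 in knockout sham hearts. The 7 heart muscle markers summed to 57130 to 58840 in knockout banded and 70510 to 77580 in knockout sham hearts, and the 6 fibroblast markers to 6669 to 14910 and 6544 to 7897. The 7 markers listed for skeletal muscle summed to 15360 to 17210 in knockout banded and 11190 to 15210 in knockout sham hearts. That list holds Ckm and Acta1, which heart muscle also expresses, so its sum does not show skeletal muscle in a sample. The part of these controls and markers in the result was not tested, and in whole tissue fewer cells of a type cannot be told apart from less RNA per cell.

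Without the array labelled knockout banded 1, 4 of 7 members passed in the same comparison, where 13.2% of all genes did. Bmal1 rose by 2.33 ± 0.51 (adjusted p = 0.0111 by limma), Per3 fell by 1.89 ± 0.27 (0.00113), Per2 fell by 1.84 ± 0.45 (0.0203) and Cry2 fell by 0.90 ± 0.23 (0.0232). The rise of Bmal1 rests on its higher probe set. Its other probe set read 60.95 and 53.05 in knockout banded 2 and 3, against 54.6 to 62.1 in knockout sham hearts. Clock was at 0.55 ± 0.17 (adjusted p = 0.054 by limma), Per1 at -0.83 ± 0.42 (0.223) and Cry1 at 0.18 ± 0.18 (0.569). With 2 arrays left in the knockout banded group, their spread rests on the spread of the other groups. The same 4 members had the largest differences with all arrays in the fit.

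**Figure D2:**
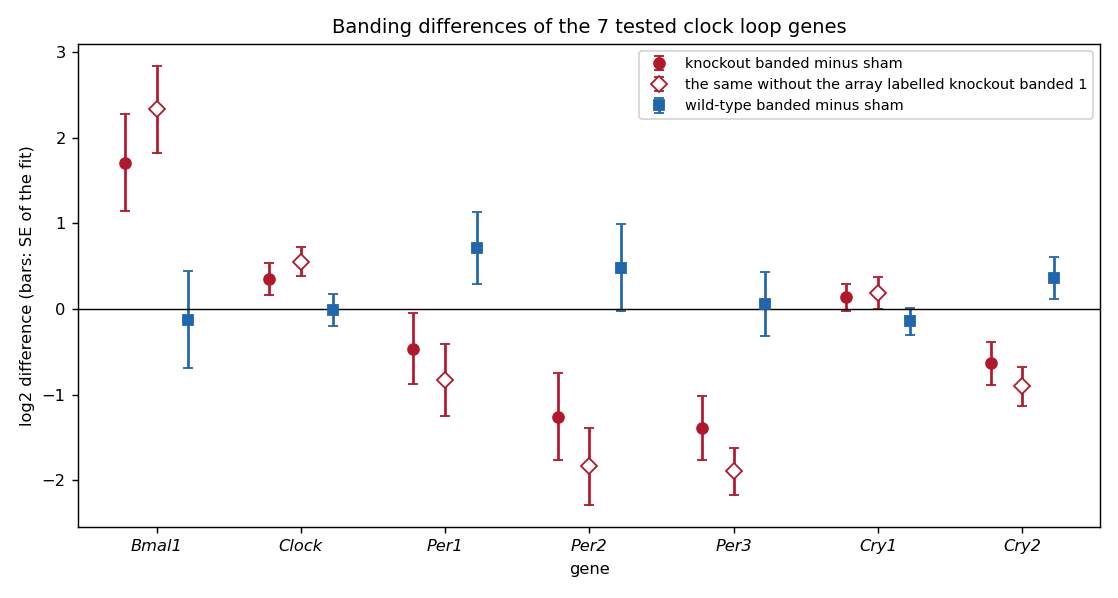
Banded minus sham log2 difference of each tested core clock gene in knockout hearts, with all arrays and without the array labelled knockout banded 1, and in wild-type hearts, with bars of 1 SE. In knockout hearts Bmal1 and Clock lie above 0 and the period genes and Cry2 below it. In wild-type hearts Bmal1 lies at -0.13, Clock at -0.01, Cry1 at -0.15, Per3 at 0.06, Cry2 at 0.36, Per2 at 0.48 and Per1 at 0.71.

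The same surgery was compared in wild-type hearts. There Bmal1 stood at -0.13 ± 0.56 (adjusted p = 0.994 by limma), Clock at -0.01 ± 0.19, Per1 at 0.71 ± 0.42 (0.921), Per2 at 0.48 ± 0.51 (0.982), Per3 at 0.06 ± 0.37, Cry1 at -0.15 ± 0.16 and Cry2 at 0.36 ± 0.25 (0.961). None of 7 members passed, and 0% of all genes did, with 0 of 7 members and 534 genes at an unadjusted p under 0.05. The wild-type sham group itself was spread wide: Bmal1 read 187 and 282 in replicates 1 and 2 and 53.5 in replicate 3, and Per2 read 51.1 and 32.1 against 183. Without wild-type sham 3 the differences were -0.73 for Bmal1, 1.26 for Per1 and 1.08 for Per2. Without wild-type sham 2 they were 0.32 for Bmal1 and 0.06 for Per2, and without wild-type sham 1 Per1 was at 0.28. Groups overlapped for all 7 members, where 9.93% of all genes did not overlap.

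The interaction, which is the knockout banding difference minus the wild-type one, asks whether genotype altered the response. It was 1.83 ± 0.80 for Bmal1 (adjusted p = 0.538 by limma), -1.74 ± 0.72 for Per2 (0.522), -1.45 ± 0.52 for Per3 (0.474), -0.99 ± 0.35 for Cry2 (0.453) and -1.18 ± 0.59 for Per1 (0.568). Clock was at 0.36 ± 0.27 and Cry1 at 0.28 ± 0.23. With both probe sets averaged, the value for Bmal1 was 0.83 ± 0.49 (adjusted p = 0.654 by limma). No member passed and 0% of all genes did, while 4 of 7 members and 994 genes had an unadjusted p under 0.05. Without the array labelled knockout banded 1, Per3 passed at -1.95 ± 0.37 (adjusted p = 0.0241 by limma), where 1.91% of genes passed, and Bmal1 stood at 2.45 ± 0.68 (0.093), Cry2 at -1.26 ± 0.31 (0.0608) and Per2 at -2.32 ± 0.60 (0.0774). With wild-type banded 3 left out as well, Per3 was at -1.98 ± 0.40 (0.0512) and no longer passed.

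The apelin deletion alone was read in sham hearts. In knockout sham against wild-type sham hearts, Bmal1 stood at -1.59 ± 0.56 and Clock at -0.44 ± 0.19, and Per2 at 1.43 ± 0.51, Per3 at 0.75 ± 0.37, Per1 at 0.64 ± 0.42, Cry2 at 0.48 ± 0.25 and Cry1 at -0.06 ± 0.16. The adjusted p by limma was 0.93 for Bmal1, Clock, Per2, Per3 and Cry2, 0.948 for Per1 and 0.997 for Cry1, so none of 7 passed and 0% of all genes did. Apln, the targeted gene, was itself not called, at -1.57 ± 0.25 (adjusted p = 0.401 by limma). The lack of calls in this comparison therefore does not show that the members were unaltered. At an unadjusted p under 0.05, 3 of 7 members (Bmal1, Clock and Per2) and 570 genes were counted, and those 3 members were also the ones whose groups did not overlap, where 10.8% of all genes did not. The 6 endothelial markers summed to 2693 to 2966 in knockout sham and 2981 to 3916 in wild-type sham hearts. In banded hearts the genotype difference was 0.24 ± 0.56 for Bmal1, -0.32 ± 0.51 for Per2 and -0.69 ± 0.37 for Per3 (adjusted p = 0.884, 0.821 and 0.409 by limma), and 0% of genes passed. Groups did not overlap there for 1 of 7 members, Cry1, where 19.1% of all genes did not. The Actb 3′ to 5′ ratio, in log2, was -0.198, -0.219 and -0.172 in knockout banded and 0.079, 0.096 and 0.277 in wild-type banded hearts. The heart muscle markers summed to 57130 to 58840 and 65840 to 82330, while the endothelial and fibroblast sums overlapped. The part of these in the genotype difference in banded hearts was not tested. Without the array labelled knockout banded 1, Per3 passed there at -1.20 ± 0.27 (adjusted p = 0.025 by limma), where 6.11% of genes did, but with wild-type banded 3 left out as well it was at -1.22 ± 0.31 (0.0621). Without the array labelled knockout banded 1 alone, the genotype difference in banded hearts was 0.86 ± 0.51 for Bmal1, -0.89 ± 0.45 for Per2 and -0.78 ± 0.23 for Cry2. The adjusted p by limma was 0.365, 0.283 and 0.0674. In the same fit Per3 also passed for banding averaged over both genotypes at -0.92 ± 0.18 (adjusted p = 0.00946 by limma), where 9.12% did, and Bmal1 stood at 1.10 ± 0.34 (0.066). With all arrays the averaged banding difference was -0.67 ± 0.26 for Per3 (0.203) and 0.79 ± 0.40 for Bmal1 (0.318), and 0 of 7 members passed where 1.6% of genes did. The knockout minus wild-type difference averaged over both surgeries passed for no member, where 0% of genes passed.

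Probe sets of a gene did not all follow it. For the 6 Per3 probe sets, the knockout banding difference was -1.60 to -0.71 for 5 of them and -0.13 for the other, and for the 3 Per2 probe sets it was -1.26, -1.03 and -0.54. The 4 Clock probe sets gave 0.05 to 0.35, and the Npas2 pair gave 0.66 and -0.06. When all single-gene probe sets were fitted, 0 of 20 member probe sets passed in this comparison, where 0.667% of all did, and groups did not overlap for 6 of the 20, where 19.4% of all did not. Correlation with Bmal1 over the 12 arrays ran from 0.654 to 0.971 for the 4 Clock probe sets and from -0.974 to -0.855 for the 3 of Per2. It was -0.953 to -0.642 for 5 of Per3 and 0.012 for the sixth, the probe set with a difference of -0.13, which read 13.8 to 39.7. For the Npas2 pair it was 0.791 and 0.171, the latter for a probe set that read 2.31 to 18.3. The second Bmal1 probe set had r = 0.388 with the first, so not every probe set of the activators followed the higher Bmal1 probe set.

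**Figure D3:**
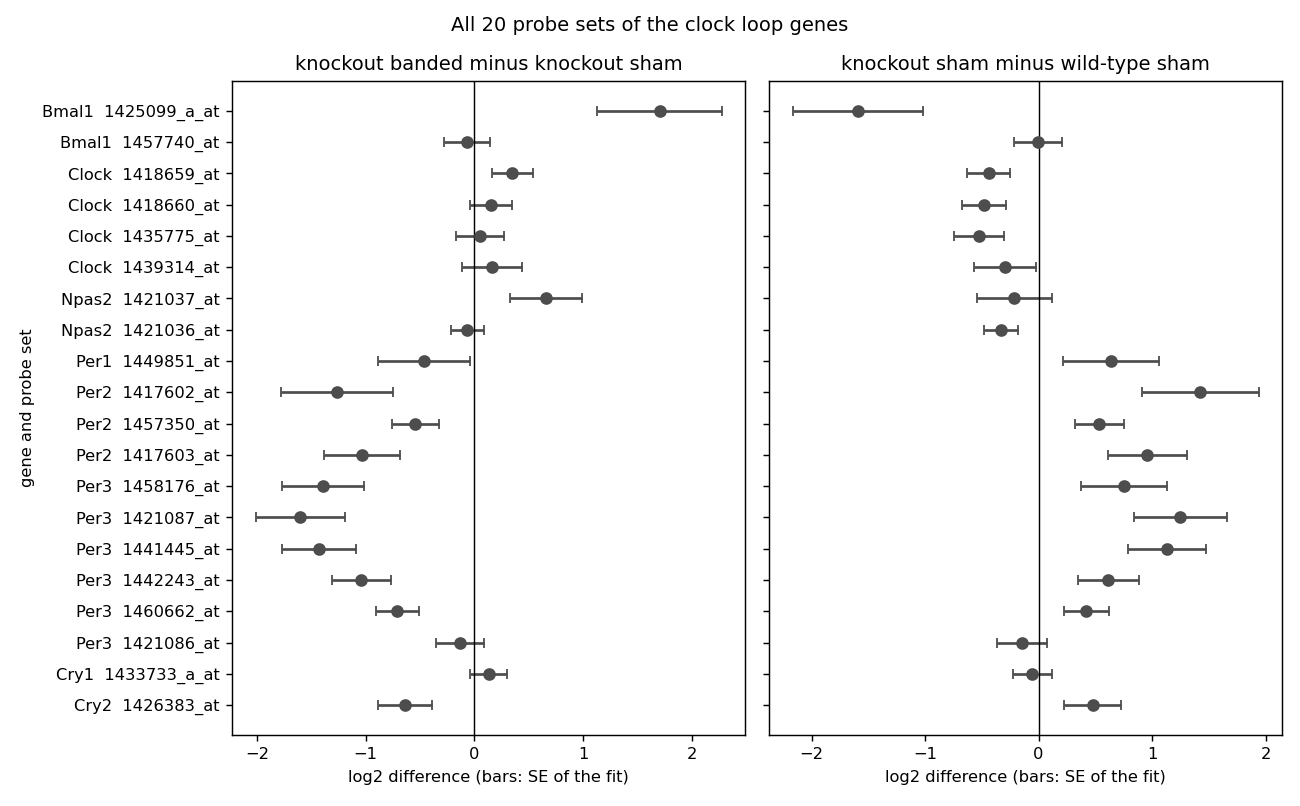
Log2 difference of each of the 20 probe sets of the core clock genes (rows), for knockout banded minus knockout sham hearts on the left and knockout sham minus wild-type sham hearts on the right, with bars of 1 SE of the fit. On the left, 5 of the Per3 probe sets lie between -1.60 and -0.71, and the second Bmal1 probe set lies at -0.07 while the first lies at 1.71.

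Across arrays, the members other than Cry1 varied along a shared pattern in the probe set used for each gene. The activators lay at 1 end and the period genes and Cry2 at the other. The 6 arrays with the lowest Bmal1 were the 3 knockout sham arrays, wild-type sham 3, wild-type banded 2 and the array labelled knockout banded 1. The same 6 arrays were the 6 lowest for Clock and for Npas2 and the 6 highest for Per2 and for Per3, and 5 of them were among the 6 highest for Per1 and for Cry2. Bmal1 and Clock correlated at r = 0.971 (Spearman rho 0.909), and Bmal1 and Per2 at r = -0.974 (rho -0.923), with permutation p = 3e-05 and 1e-05, of which 1e-05 is the smallest that 100000 permutations can give (two-sided, adjusted over 28 pairs 0.00042 and 0.00028; Spearman 0.0001 and 8e-05, adjusted 0.0007 for both). Over the 12 arrays Bmal1 correlated at -0.875 with Per3, -0.741 with Cry2, -0.716 with Per1, 0.791 with Npas2 and 0.381 with Cry1 (permutation p = 8e-05, 0.00783, 0.00929, 0.00402 and 0.215; adjusted 0.00056, 0.0199, 0.021, 0.0113 and 0.231), with Spearman rho of -0.93, -0.699, -0.664, 0.776 and 0.434 (permutation p = 7e-05, 0.0141, 0.0217, 0.00461 and 0.16; adjusted 0.0007, 0.0264, 0.0354, 0.0143 and 0.179). Of the 28 pairs of members, 21 had a Pearson p that passed 0.05 after adjustment, 9 with a positive and 12 with a negative r.

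**Figure D4:**
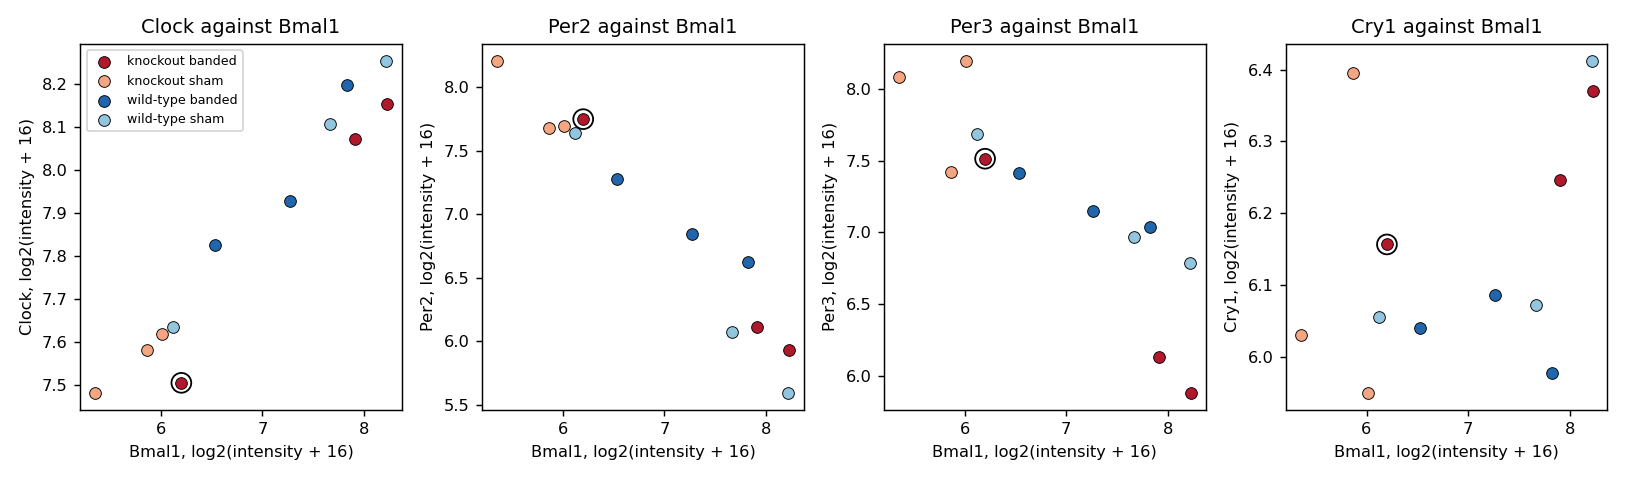
Bmal1 (horizontal axis, log2(intensity + 16)) against Clock, Per2, Per3 and Cry1 (vertical axes, in the same unit with a range of their own) in the 12 arrays, coloured by group, with a ring round the array labelled knockout banded 1. Clock is high where Bmal1 is high (r = 0.971), Per2 and Per3 are low there (r = -0.974 and -0.875), and Cry1 shows no clear order (r = 0.381).

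The pattern was also seen inside the groups. When each array was set against its group mean, all 21 of those pairs kept their sign, with sizes of r from 0.557 to 0.989. The r of Bmal1 was then 0.989 with Clock, 0.811 with Npas2, -0.982 with Per2, -0.864 with Per3, -0.838 with Per1 and -0.716 with Cry2. Leaving out the 2 arrays farthest from the median of Bmal1, or of the first gene of the pair, gave sizes of r from 0.453 to 0.969 for the 21 pairs. The r of Bmal1 then became 0.969 with Clock, -0.962 with Per2, 0.834 with Npas2, -0.83 with Per3, -0.731 with Per1, -0.668 with Cry2 and 0.181 with Cry1. Without the array labelled knockout banded 1, an alternative chosen after seeing the data, all 21 kept their sign, with sizes of r from 0.618 to 0.984. Of the 7 pairs with Cry1, those with Per3 and Cry2 passed, at r = -0.609 and -0.664 (permutation p = 0.0353 and 0.0203; adjusted 0.0471 and 0.0299; Spearman rho -0.587 and -0.797, permutation p = 0.0479 and 0.00287, adjusted 0.063 and 0.01), and r was -0.453 and -0.762 without the 2 farthest arrays. The r of Cry1 with Bmal1 was 0.381, with Clock 0.294 and with Per2 -0.471 (permutation p = 0.215, 0.343 and 0.121; adjusted 0.231, 0.355 and 0.141; Spearman rho 0.434, 0.273 and -0.476, permutation p = 0.16, 0.387 and 0.119, adjusted 0.179, 0.402 and 0.139), and r was 0.181, 0.018 and -0.231 without the 2 farthest arrays. The Actb 3′ to 5′ ratio had r = -0.388 with Bmal1 over the arrays, and the marker list with the largest r with Bmal1 was endothelium, at 0.641. The part of either in the pattern was not tested.

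The genes most like the members were sought among 10915 tested genes, as a description. Clock was the gene with the highest r with Bmal1, and Per2 had the second lowest, after Tef (r = -0.976), a PAR bZIP factor of the clock output. Then came Dbp, the best known of those output factors (r = -0.95), Ciart, a repressor of the BMAL1 and CLOCK pair (-0.938), Usp2, an enzyme that removes ubiquitin (-0.93), and Tspan4 (-0.926). Among genes that are no members, the highest r with Bmal1 belonged to the phosphatase gene Ptpre (0.953), the protease gene Adam19 (0.939), Leo1 and Plekhg1 (0.909 each) and the collagen gene Col5a3 (0.897). With Per2, the highest were Tef (0.96), Ciart (0.947), Dbp (0.927), the hexokinase gene Hk2 (0.899) and Tspan4 (0.891), and the lowest were Ptpre (-0.937), Leo1 (-0.913), Adam19 (-0.906), Pigf (-0.893) and Rassf5 (-0.89). Among the other members, Per3 had the 18th lowest r with Bmal1, Cry2 the 134th and Per1 the 180th.

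Related clock genes lay in a similar order of arrays. Dbp read 911, 126 and 218 in knockout banded and 1187, 1339 and 1455 in knockout sham hearts, against 329, 764 and 357 in wild-type banded and 544, 122 and 1079 in wild-type sham hearts. The array labelled knockout banded 1 and wild-type sham 3 again read near the knockout sham values. For Dbp, Tef, Hlf, Ciart and Nr1d2 the 6 highest arrays were the same 6 that were lowest for Bmal1. Nr1d1, which encodes REV-ERB alpha, held 4 of those 6 and had r = -0.556 with Bmal1, and Nfil3, a repressor that opposes the PAR bZIP factors, held 1 of them among its 6 highest and had r = 0.673.

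**Figure D5:**
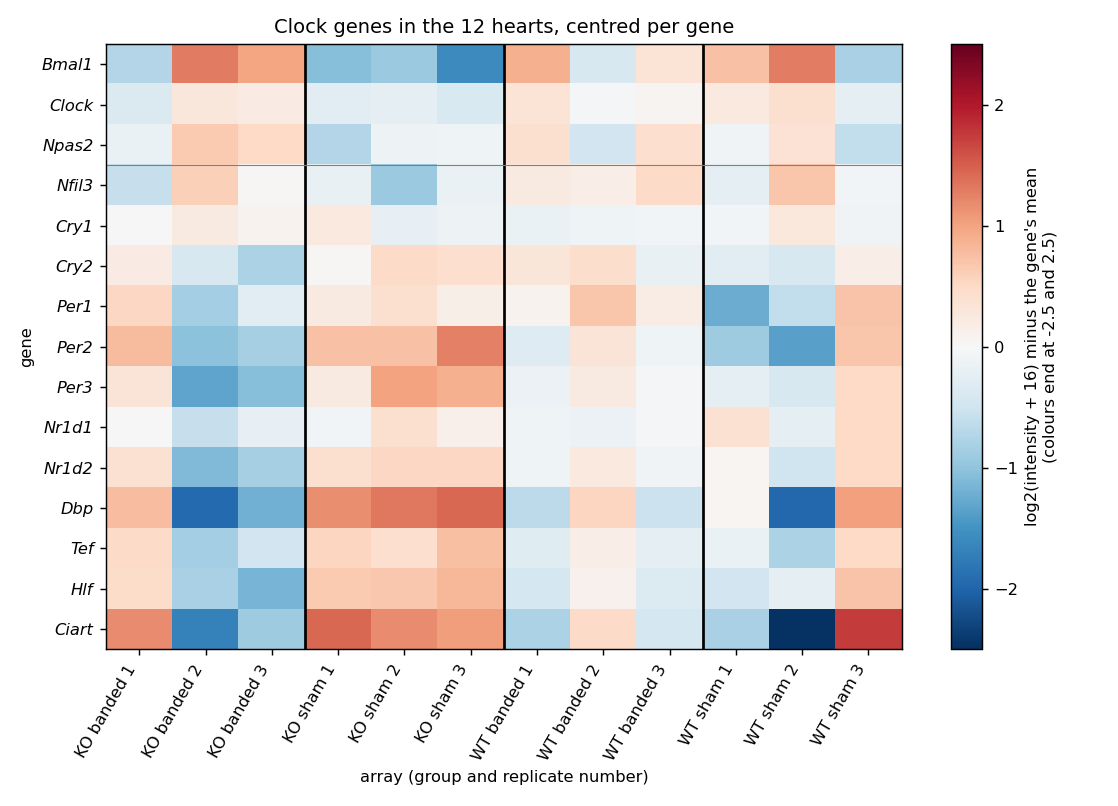
Log2(intensity + 16) of each gene minus its mean over the 12 arrays, for the 8 core clock genes and the related clock genes, with arrays in columns by group and colours that end at -2.5 and 2.5. The knockout sham columns, the array labelled knockout banded 1 and wild-type sham 3 are low for Bmal1 and Clock and high for Per2, Per3 and Dbp.

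In knockout banded against knockout sham hearts, Dbp stood at -2.10 ± 0.71, Hlf at -1.22 ± 0.37 and Tef at -0.85 ± 0.33 (adjusted p = 0.114, 0.0844 and 0.162 by limma), so 0 of the 3 PAR bZIP outputs passed, where 3.81% of all genes did, with a list median of -1.22. In the second loop, 0 of 6 tested genes passed, with a median of -0.25: Ciart stood at -1.69 ± 0.88, Nr1d2, which encodes REV-ERB beta, at -1.002 ± 0.32, Nr1d1 at -0.42 ± 0.19 and Nfil3 at 0.44 ± 0.32 (adjusted p = 0.29, 0.0955, 0.24 and 0.458 by limma). None of 9 clock protein modifiers passed, with a median of 0.03. Of 10 genes of the heart linked to the clock, 1 was lower: Pik3r1, a regulatory subunit of PI3 kinase, fell by 0.74 ± 0.15 (adjusted p = 0.0225 by limma). The median was -0.46 over that list and -0.018 over all genes. With all arrays, no gene of these lists passed in any other comparison. Immediate-early genes and glucocorticoid-responsive genes, which answer to signals known to induce Per1 and Per2, passed for 0 of 10 members of each list, with medians of 1.26 and 0.46. For wild-type banded against wild-type sham hearts the medians of these lists were 0.84 and 0.41, so the shift was not particular to knockout hearts.

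Without the array labelled knockout banded 1, all 3 PAR bZIP outputs were lower in knockout banded hearts, where Dbp fell by 2.88, Hlf fell by 1.71 and Tef fell by 1.23 on the log2 scale (adjusted p = 0.0123, 0.00275 and 0.0157 by limma). Nr1d2 fell by 1.45 (0.00172), the 1 of 6 second-loop genes that passed, and Usp2 fell by 1.64, the 1 of 9 modifiers. Of the clock-linked heart genes 5 of 10 were lower: Pik3r1, Nampt, Klf15, Dgat2 and Ucp3. Of the immediate-early genes 5 of 10 were higher: Fos, Egr1, Egr2, Ier2 and Crem. Of the glucocorticoid-responsive genes, Cdkn1a was higher and Klf9 lower, 1 of 10 each. In this fit 6.25% of all genes were higher and 6.95% lower. The same omission brought calls in other comparisons. For genotype in banded hearts, where 6.11% of genes passed, 4 of 10 clock-linked heart genes (Klf15, Nampt, Pik3r1 and Ucp3), 1 of 6 second-loop genes (Nr1d2) and 1 of 10 glucocorticoid-responsive genes (Klf9) were lower in knockout banded than in wild-type banded hearts. For the interaction, where 1.91% passed, Nr1d2 was at -1.46 ± 0.30 and Pik3r1 at -0.999 ± 0.20 (adjusted p = 0.0351 and 0.032 by limma). For genotype averaged over both surgeries, where 1.29% passed, 3 of 10 clock-linked heart genes (Nampt, Ucp3 and Pdk4, which is also on the glucocorticoid list) were lower in knockout hearts. For averaged banding, where 9.12% passed, 6 of 10 immediate-early genes (Fos, Egr1, Egr2, Ier2, Jun and Crem) and 2 of 10 glucocorticoid-responsive genes (Cdkn1a and Sgk1) were higher in banded hearts, and Hlf, Nr1d2, Usp2, Nampt and Ucp3 were lower.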

How the data were processed

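Intensity values per probe set were deposited by the authors on a linear scale. The program and scaling behind them are not stated by the labels. Trimmed by 2% at either end, every array had a mean of 150, so no further scaling was applied. RNA was extracted with Trizol, per the labels' protocols. Of 45101 probe sets, 64 were controls, 34945 had 1 gene in the platform annotation, 932 had several and 9160 were not listed. Of the single-gene probe sets, 34741 were found in RefSeq by Entrez number with the symbol unaltered. Arrays give no read depth, and precision is limited by how many there are.

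Values were taken as log2(intensity + 16). Each gene used its probe set with the highest mean, and the upper 60% of 18193 genes, 10916, were tested with limma 3.58.1 in R 4.3.3 (lmFit and eBayes with trend, 4 group means, 8 residual degrees of freedom, two-sided). A gene passed at an adjusted p under 0.05 (Benjamini-Hochberg over all tested genes). There were 7 contrasts. The procedure was tested on simulated data. Correlations used 100000 permutations of the arrays, which ignore the groups.

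The members and lists were chosen with earlier results of these data known. The genes named are all 8 members, list genes that passed, Nr1d1, Nr1d2, Dbp, Tef, Hlf, Ciart and Nfil3, Apln, and the 5 genes with the highest and lowest correlation with Bmal1 and Per2. Usp2 and the other genes named without the array labelled knockout banded 1 are those that passed there. Marker lists covered heart muscle, atrial muscle, fat, lung and airway, endothelium, fibroblasts, macrophages, neutrophils, lymphocytes, red cells and skeletal muscle. The labels do not say whether the replicate numbers pair the samples, and the main fit did not pair them. Deviations from the group means correlated at -0.281 to 0.233 over 18 same-number pairs, and at -0.223 to 0.278 over 36 other pairs. These ranges cannot show whether samples were paired.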

Additional observations from a re-analysis of the deposited data

How the results depend on the processing

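For banding in knockout hearts the count of members past the threshold, 0 of 7 with all arrays, was 0 to 4 when each array was left out in turn, and the 4 came without the array labelled knockout banded 1, where 13.2% of all genes passed. It was 5 with array weights (2 higher, 3 lower, Clock among them, where 17.1% of genes passed), 1 when all probe sets of a gene were averaged (3.01%), and 4 when wild-type banded 3 was left out as well (12.4%). For banding averaged over both genotypes the counts were 0 to 1, 1 with array weights (7.04% of genes) and 1 without both arrays (8.5%). For genotype in banded hearts and for the interaction they were 0 to 1 each, and 1 without both arrays (3.24% and 0.879% of genes). The member that passed there was Per3 without the array labelled knockout banded 1, and Cry2 instead without both (adjusted p = 0.0426 and 0.0472 by limma). Of 20 probe sets, 0 to 8 passed for knockout banding when each array was left out (4.96% of all probe sets at the highest), 6 with array weights (4.56%) and 6 without both arrays (4.73%). For averaged banding 0 to 3 passed (3.57% at the highest), with 1 without both arrays (3.28%), and for the interaction 0 to 1 (0.484%). The highest count in each of these leave-one-out ranges came without the array labelled knockout banded 1. With the replicate number as a block, 0 members passed in each of the 7 contrasts. All genes called for knockout banding numbered 416, and 9 (without knockout sham 3) to 1870 (array weights) over the alternatives, and for averaged banding 175, and 5 to 996. Genes called reached 667 for genotype in banded hearts, 141 for averaged genotype, 208 for the interaction and 3 for wild-type banding. Of 952 alternative values of single members, 54 had the opposite sign, none of them among the 122 for knockout banding. The cause of these differences was not tested. In the first 250 bases of the windows, 6.02% held the E-box, 3.85% the E'-box, 2.06% the D-box, 0.177% the ROR and REV-ERB element and 1.55% the cyclic AMP element.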
